A study of Mus musculus with 12 samples.

Results

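The thyroid hormone genes of mouse hippocampal cultures are described here by 8 members: the deiodinases Dio2 and Dio3, the receptors Thra and Thrb, the thyroxine transporter Slco1c1, the hormone-responsive genes Hr and Klf9, and the corepressor Ncor1. The members were taken by name from the 48709 genes counted, and all 8 were among the 18847 genes that passed the filter on low counts. Dio2 was selected on its increase between the groups described below, so its change is given as a description with no test. The other 7 were chosen for their role in the pathway, by a choice made with results of these data known, and their counts support nothing on their own. The question was whether genes that respond to the hormone move with Dio2.

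Primary hippocampal neurons were prepared from E17 embryos of CD1 mice, with no transgene or deletion in either group. The hippocampi of several embryos were pooled for a preparation, and the cultures hold neurons as well as glia. At DIV10 (day in vitro) cultures received lipid nanoparticles with a miR-148a-3p mimic, a synthetic RNA that supplies this microRNA, or with a negative control, and RNA was taken 48 h later at DIV12. Each group had 6 samples, called control and mimic below, and nothing in the labels says whether the 6 came from separate preparations, so p-values measure the spread between these samples only. The microRNA itself was not measured in these poly(A) libraries.

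The brain receives thyroid hormone mainly as the prohormone thyroxine. Slco1c1 and other transporters carry it into cells, the type 2 deiodinase encoded by Dio2, an enzyme found above all in astrocytes, removes an iodine to make the active triiodothyronine, and the type 3 deiodinase encoded by Dio3, found above all in neurons, inactivates both. Triiodothyronine binds the nuclear receptors TRα and TRβ, encoded by Thra and Thrb. Without hormone these receptors hold corepressors such as NCoR1 at their target genes, and with it they switch to coactivators; Hr and Klf9 are among the best known targets in brain. The culture medium supplement B27 contains triiodothyronine, so hormone was supplied in both groups. Transcript levels do not give hormone levels or enzyme activity, which were not measured.

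A microRNA recognises a transcript by its seed, bases 2 to 8 from its 5′ end, so the oligonucleotides are shown first. The first pair comes from the reagent list of the study, on the assumption that the listed negative control is the one used in these cultures, and the others are RefSeq entries on GRCm38.p6 that share the seed; capitals mark the seed. The mimic is identical to the mature mmu-miR-148a-3p on chr6:51269829-51269850 (minus strand).
miR-148a-3p mimic: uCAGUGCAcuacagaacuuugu
negative control: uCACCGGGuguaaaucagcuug
mmu-miR-148b-3p: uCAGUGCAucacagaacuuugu
mmu-miR-152-3p: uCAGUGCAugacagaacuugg

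Matches to these seeds were sought in the longest annotated 3′ UTR of each gene. A match to the mimic is present in 21.9% of the 15082 tested genes with a 3′ UTR and one to the negative control in 4.42%. Dio2, whose 3′ UTR of 4860 bases is the longest of the 8, holds neither, nor do Dio3, Slco1c1 and Hr. Klf9, Thra, Thrb and Ncor1 each hold 1 match to the mimic, and Thrb also holds 1 to the negative control. Of the list and marker genes named below, Rora, Slc1a3 and Flt1 each hold 1 match to the negative control as well. The amino acid transporter Slc7a8, which also carries thyroid hormones, holds 1 match to the mimic as well. The sites shown are those of the members and of Slc7a8, and they are not all the matches in the pathway. Of the 20 tested members and list genes with a match to the mimic, 4 passed higher and 1 lower. The 1 that passed lower is Slc7a8, and matches in the other list genes are not printed. Capitals mark the bases that match, in the sense of the transcript on GRCm38.
Klf9, chr19:23165060-23165066 (plus): tgatatctcccTGCACTGtttccaaaaag
Thra, chr11:98764668-98764674 (plus): ccatacaccccTGCACTGcccagccccct
Thrb, chr14:18035574-18035580 (plus): ttagaggcacaGCACTGAaagtcccaaga
Ncor1, chr11:62402526-62402532 (minus): agctgggaagcTGCACTGtttgatgattt
Slc7a8, chr14:54722821-54722827 (minus): aggacagaatgGCACTGActttggagacc
Thrb, negative control seed, chr14:18037229-18037235 (plus): gtaaggacttgCCCGGTGtgtatttttta
The Ncor1 match lies in the 3′ UTR of a short transcript, 86100 bases before the annotated end of the gene, and the Thra match lies 4332 bases before the annotated end of that gene. Neither value says whether the match is present in the transcripts these cultures make. A match is a run of letters, and no binding was measured.

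Dio2 is also known as a gene induced by cAMP. The 250 bases before its RefSeq start on GRCm38.p6, chr12:90739039-90739288 (minus strand), hold 1 copy of the palindromic cAMP response element TGACGTCA, 95 bases before the start, in capitals below.
Dio2 upstream: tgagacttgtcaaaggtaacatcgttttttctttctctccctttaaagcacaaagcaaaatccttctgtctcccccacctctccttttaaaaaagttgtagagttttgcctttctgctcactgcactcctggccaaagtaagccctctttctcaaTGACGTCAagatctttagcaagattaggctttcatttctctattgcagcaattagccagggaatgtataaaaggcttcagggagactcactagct
Of 32851 RefSeq promoter windows of the same length, 1.55% hold these letters. The half-site of the thyroid hormone receptor, AGGTCA on either strand, is present in 14% of them and in 1 of the Thrb windows. Windows were at hand for Dio2, Dio3, Klf9, Ncor1, Slco1c1 and Thrb, and none of them holds 2 half-sites in the same direction with a spacer of 4 bases, an arrangement present in 0.0152% of all windows. No binding to these windows was measured here.

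Library totals ran from 20018234 to 37149112 counts. A level in CPM is a gene's count scaled to the total of its library, with TMM factors. Changes are log2 fold changes of mimic against control from edgeR's quasi-likelihood test, with Benjamini-Hochberg adjustment over all tested genes. Of all tested genes, 22.2% passed an adjusted p under 0.05, with 11.5% higher and 10.7% lower in mimic, so a gene that passes is no rarity in this comparison. The shallowest libraries were control replicates 1 and 2, and they stood apart in several levels below. Neuron markers were abundant, with a summed level of 8284 to 8965 CPM over 11 genes, astrocyte markers summed to 6173 to 7800 CPM over 14 genes, and microglia markers to 20.9 to 32.5 CPM over 8. The endothelial marker Cldn5 was at or near 0 in every library, and most of the endothelial sum of 29.3 to 69.5 CPM over 8 genes was Kdr.

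Dio2 (ENSMUSG00000007682, mm10 chromosome 12, 90724552 to 90738438, minus strand) had its lowest control library at 44.7 CPM, its control median at 61.9 and its highest control library at 70.4. In mimic the lowest library was at 186 CPM, the median at 214 and the highest at 244. The lowest mimic library was thus above the highest control library, and control replicate 2 was the low one among the controls. The mean ratio was 3.56 and the log2 fold change 1.83 (± 0.09 SE), the highest value among the 12371 genes with a mean of at least 100 counts, which is how the gene came to be chosen. Leaving out any single library gave values from 1.76 to 1.87. An opposite-strand gene, Gm26512, shares 100 exonic bases with Dio2 and collected 341 counts over the 12 libraries, against a mean of 4181 counts per library for Dio2.

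**Figure D1:**
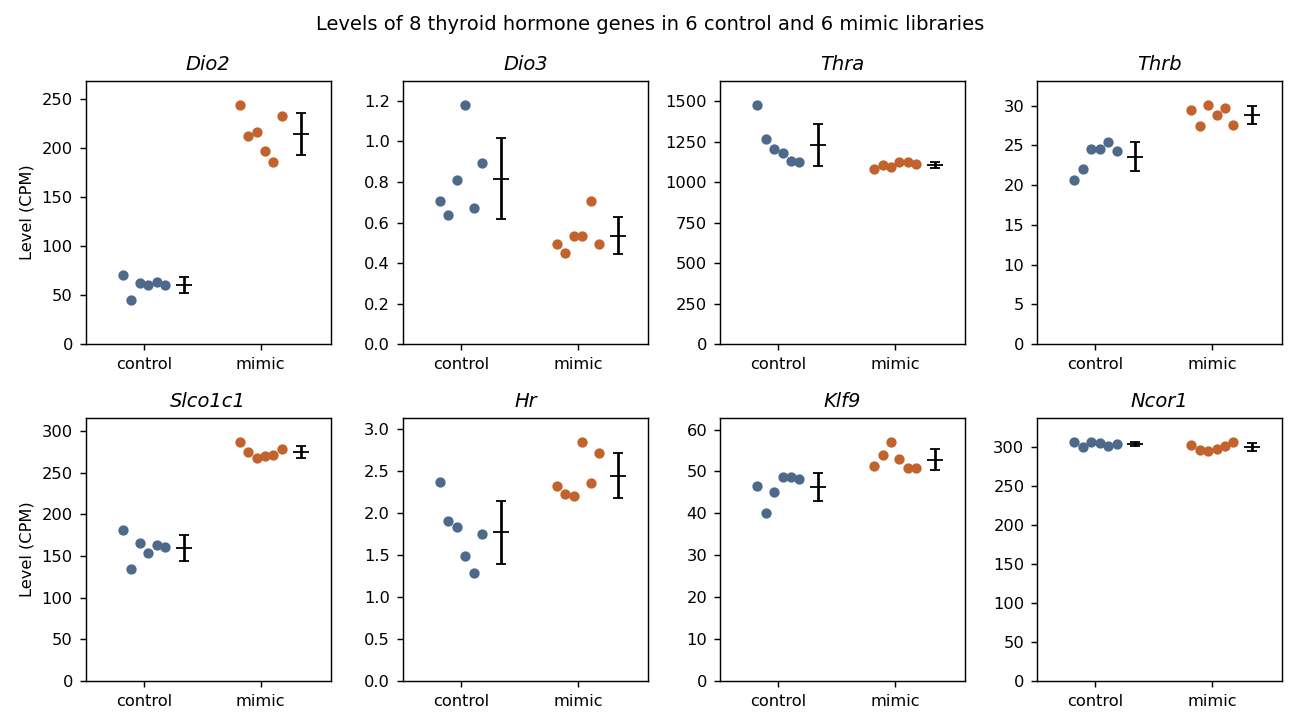
Levels of the 8 members in CPM (vertical axis, from 0) in 6 control (blue) and 6 mimic (orange) libraries; each point is a library, in the order of replicates 1 to 6, and bars give the mean ± SD. Dio2 lies at 44.7 to 70.4 CPM in control and 186 to 244 CPM in mimic, while the Ncor1 points of both groups lie between 295 and 307 CPM.

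The transporter Slco1c1 (chromosome 6, 141524368 to 141570177), which carries thyroxine across the membrane and in brain is known from endothelium and astrocytes, had a low of 134, a median of 162 and a high of 181 CPM in control. In mimic the values were 267, 273 and 287 CPM. The groups did not overlap, and as for Dio2 the lowest control was replicate 2 and the highest replicate 1. Slco1c1 rose 1.72-fold, by 0.78 on the log2 scale (± 0.054 SE, adjusted p = 1.36e-08 by edgeR).

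Dio3 (chromosome 12, 110279068 to 110281097), the inactivating deiodinase, was barely expressed, with 14 to 38 counts in a library. Its control libraries ran from 0.637 over a median of 0.758 to 1.18 CPM and its mimic libraries from 0.452 over 0.514 to 0.708 CPM. The groups overlapped, since mimic replicate 5 at 0.708 CPM lay above the lowest controls. Dio3 fell by 0.62 on the log2 scale (± 0.19 SE, adjusted p = 0.0221 by edgeR). Without control replicate 4, its highest control, the value was -0.48 and did not pass (edgeR adjusted p = 0.0671).

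Both receptors were expressed. Thra (chromosome 11, 98740638 to 98769006) had control libraries from 1124 over a median of 1192 to 1478 CPM and mimic libraries from 1084 over 1110 to 1128 CPM. Control replicate 1 was the high one, and the groups overlapped by the width of a few CPM. Its change of -0.15 on the log2 scale (± 0.054 SE) missed the threshold (adjusted p = 0.0551 by edgeR). Thra passed without control replicate 1 (-0.092, adjusted p = 0.0306), without control replicate 5 (-0.17, adjusted p = 0.033) and without control replicate 6 (-0.18, adjusted p = 0.0312). It also passed with upper-quartile scaling (-0.17, adjusted p = 0.0248), with no filter (-0.15, adjusted p = 0.0351) and with a filter at a mean of 50 counts (-0.15, adjusted p = 0.0348). Exons of Thra overlap those of Nr1d1 on the opposite strand over 263 bases, which the counts may not separate. Thrb (chromosome 14, 17660261 to 18038090) ran from 20.6 over 24.4 to 25.4 CPM in control and from 27.4 over 29.1 to 30.1 CPM in mimic. The groups did not overlap, and Thrb rose by 0.29 on the log2 scale (± 0.051 SE, adjusted p = 0.000457 by edgeR).

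The 2 classical responsive genes both rose. Klf9 (chromosome 19, 23141226 to 23168134), a zinc finger transcription factor, ran from 40.1 over 47.3 to 48.7 CPM in control and from 50.7 over 52.2 to 57.1 CPM in mimic. The groups did not overlap, although the highest control and the lowest mimic library were only a little apart. Klf9 rose 1.14-fold, by 0.19 on the log2 scale (± 0.049 SE, adjusted p = 0.00824 by edgeR). Hr (chromosome 14, 70552212 to 70573548), a corepressor whose transcript is raised by hormone in the developing brain, was low, with 42 to 91 counts in a library. It ran from 1.28 over 1.79 to 2.37 CPM in control and from 2.2 over 2.34 to 2.85 CPM in mimic. The groups overlapped through control replicate 1 at 2.37 CPM. Hr rose 1.38-fold, by 0.49 on the log2 scale (± 0.13 SE, adjusted p = 0.011 by edgeR). Tested against a minimum change of 1.2-fold in place of no change, neither Klf9 (adjusted p = 1) nor Hr (adjusted p = 0.192) passed.

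Ncor1 (chromosome 11, 62316426 to 62458541), the corepressor of the unliganded receptors, lay between 300 and 307 CPM in control and between 295 and 307 CPM in mimic. Its log2 fold change was -0.018 (± 0.027 SE, adjusted p = 0.701 by edgeR). Among the 7 members other than Dio2, 4 passed higher and 1 lower, beside 22.2% of all genes passing, and nothing is read from that count because the members were chosen with results known. Of these 7, Slco1c1, Thrb and Klf9 had groups that did not overlap, which holds for 13.3% of all tested genes.

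Levels of different genes were compared per kilobase of annotated exon (CPM per kb). In control the order from the top was Thra at 267 ± 28.6 CPM per kb, Slco1c1 at 30.8 ± 3.01, Ncor1 at 23.7 ± 0.231, Dio2 at 10.4 ± 1.46, Klf9 at 9.6 ± 0.687, Thrb at 3.18 ± 0.248, Dio3 at 0.402 ± 0.0985 and Hr at 0.256 ± 0.0543 (SD, n = 6 each). Dio2 and Klf9 overlapped in range there, as did Dio3 and Hr, and the other neighbours did not. In mimic Dio2 stood at rank 3 with 36.9 ± 3.69 CPM per kb, below Slco1c1 at 52.9 ± 1.4 and above Ncor1 at 23.4 ± 0.387, with no overlap between these neighbours (SD, n = 6 each). At the low end Hr at 0.353 ± 0.0387 and Dio3 at 0.264 ± 0.0441 CPM per kb overlapped (SD, n = 6 each).

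The balance of the activating and the inactivating deiodinase can be read within a library. The log2 ratio of Dio2 to Dio3, in CPM per kb, ran from 4.17 to 5.12 in control and from 6.52 to 7.42 in mimic, so transcripts of the activating enzyme exceeded those of the inactivating one in every library and the means of the groups differed by 2.43. This ratio contains Dio2 and is given as a description. The log2 ratio of Thra to Thrb ran from 6.16 to 6.85 in control and from 5.87 to 6.02 in mimic, with Thra higher than Thrb throughout. These counts are per gene and do not separate splice forms, so the ratio does not give the balance of hormone-binding receptors.

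A relation between Dio2 and the other members inside a group does not depend on the contrast that chose Dio2, so it was tested over the 6 libraries of each group, with 7 members in 2 groups giving 14 relations. No relation passed Benjamini-Hochberg adjustment, and 1 had an unadjusted exact permutation p under 0.05. For Hr, Pearson's r with Dio2 was 0.04 in control (rho 0.03, exact permutation p = 0.942 and 1, adjusted 0.949 and 1) and -0.12 in mimic (rho -0.26, exact permutation p = 0.824 and 0.658, adjusted 0.949 and 1). Without the 2 libraries farthest from the Dio2 median these became -0.34 and -0.17. Within a group the Hr level therefore showed no detectable relation to Dio2 over these libraries.

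For Klf9, r with Dio2 was 0.78 in control (rho 0.37, exact permutation p = 0.118 and 0.497, adjusted 0.275 and 0.994), and without the 2 farthest libraries it was -0.40, so it rests on those libraries. In mimic r was -0.04 (rho 0.14, exact permutation p = 0.949 and 0.803, adjusted 0.949 and 0.994), and -0.30 without the 2 farthest. Slco1c1 came closest to a relation. Its r with Dio2 was 0.97 in control (rho 0.89, exact permutation p = 0.00694 and 0.0333, adjusted 0.0972 and 0.408), with 0.65 over the 4 libraries left without the 2 farthest. In mimic it was 0.75 (rho 0.60, exact permutation p = 0.0861 and 0.242, adjusted 0.275 and 0.994), and 0.62 without the 2 farthest. The strongest negative value was that of Thra in mimic, where r was -0.78 (rho -0.83, exact permutation p = 0.0736 and 0.0583, adjusted 0.275 and 0.408), and -0.29 without the 2 farthest. In the remaining relations, those of Dio3, Thrb and Ncor1 in both groups and of Thra in control, r lay between -0.69 and 0.68. With 6 libraries the smallest p the exact test can give is 0.00139, before adjustment, and all tests were two-sided.

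**Figure D2:**
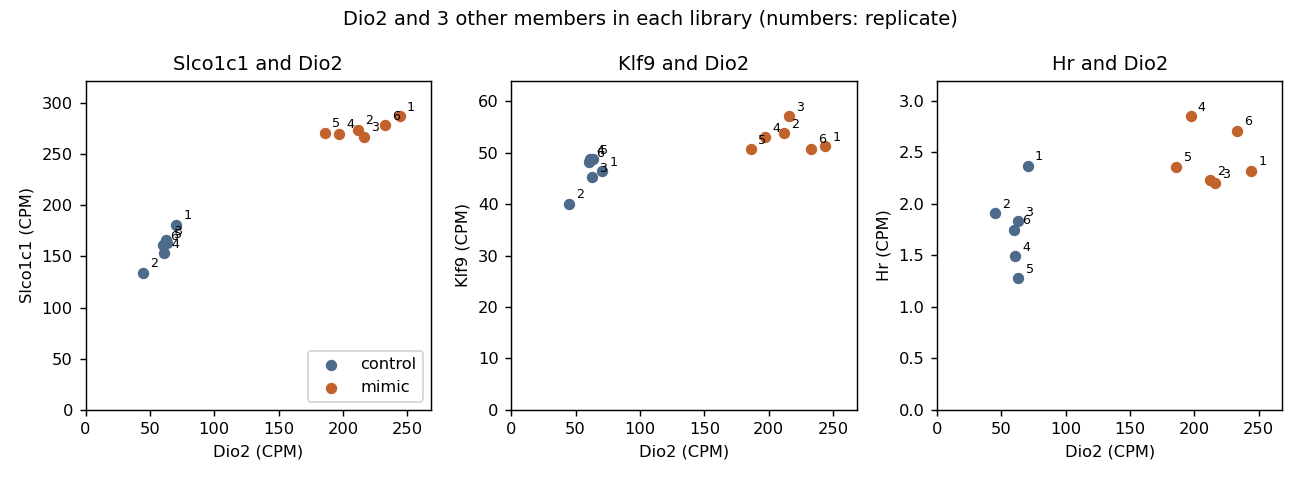
Dio2 (horizontal axis, CPM) against Slco1c1, Klf9 and Hr (vertical axes, CPM) in each library, with replicate numbers beside the points and all axes from 0. Control points (blue) lie at 44.7 to 70.4 CPM of Dio2 and mimic points (orange) at 186 to 244 CPM, and inside the groups r with Dio2 is 0.97 in control and 0.75 in mimic for Slco1c1 and 0.04 and -0.12 for Hr, none passing adjustment.

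Over all genes with a mean of at least 100 counts and a regular symbol, likeness to Dio2 was ranked by the correlation over the 12 libraries after the mean of each group was subtracted. The 5 genes most like it among 11752 were Zeb1 (0.97), Ptprz1 (0.91), Paqr8 (0.89), Tmod3 (0.89) and Fgf1 (0.89). Slco1c1 came next at rank 6, also with 0.89, and Klf9 was at rank 591 with 0.55. Zeb1 is a zinc finger repressor, Ptprz1 a receptor tyrosine phosphatase of glia, and Paqr8 a membrane progestin receptor; their log2 fold changes were 0.49, 0.57 and 0.77 (edgeR adjusted p = 1.35e-06, 2.71e-07 and 7.19e-10). Fgf1, a growth factor, had 0.73 (adjusted p = 0.00038). Tmod3, an actin-capping protein, had 0.06 and did not pass (adjusted p = 0.422). Control replicate 2, which is low in Dio2 and among the shallow libraries, is part of these correlations, and no values without it are given. The ranking is a description with no test.

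Dio2 is an astrocyte enzyme, so the markers of that cell type are set beside it. Of 14 astrocyte markers 10 passed higher and 1 lower, where 11.5% of all tested genes passed higher and 10.7% lower. Their median log2 fold change was 0.27 against -0.012 over all tested genes. The glutamate transporter Slc1a3 rose by 0.99 (± 0.038 SE, adjusted p = 4.23e-11 by edgeR), and Gfap, the intermediate filament, fell by 0.90 (± 0.078 SE, adjusted p = 5.52e-07 by edgeR). Gjb6, a connexin at 0.294 CPM in control and 0.72 CPM in mimic, rose by 1.32 (± 0.26 SE, adjusted p = 0.00116 by edgeR). Aqp4, the water channel, did not pass at -0.17 (± 0.07 SE, adjusted p = 0.0942 by edgeR), and passed lower without control replicate 1 (-0.21, adjusted p = 0.0406), without mimic replicate 3 (-0.22, adjusted p = 0.0281) and with the replicate block (-0.17, adjusted p = 0.0451). Slco1c1 at 0.78 stood below Slc1a3 and Gjb6 and above the other markers. The summed level of the 14 ran from 6173 to 6643 CPM in control and from 7320 to 7800 CPM in mimic, a mean ratio of 1.15, and without Gfap the ratio was 1.32. Dio2 per 1000 CPM of these markers was 7.24 to 10.6 CPM in control and 24.7 to 33.1 CPM in mimic, a ratio of means of 3.1 that is a description because Dio2 was selected on its increase, and Slco1c1 per 1000 CPM was 21.7 to 27.3 CPM in control and 34.2 to 38.9 CPM in mimic, or 1.49-fold higher. With Gfap left out of the sum these ratios were 2.71 and 1.31. More cells of a type and more RNA per cell cannot be told apart in RNA from whole cultures.

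**Figure D3:**
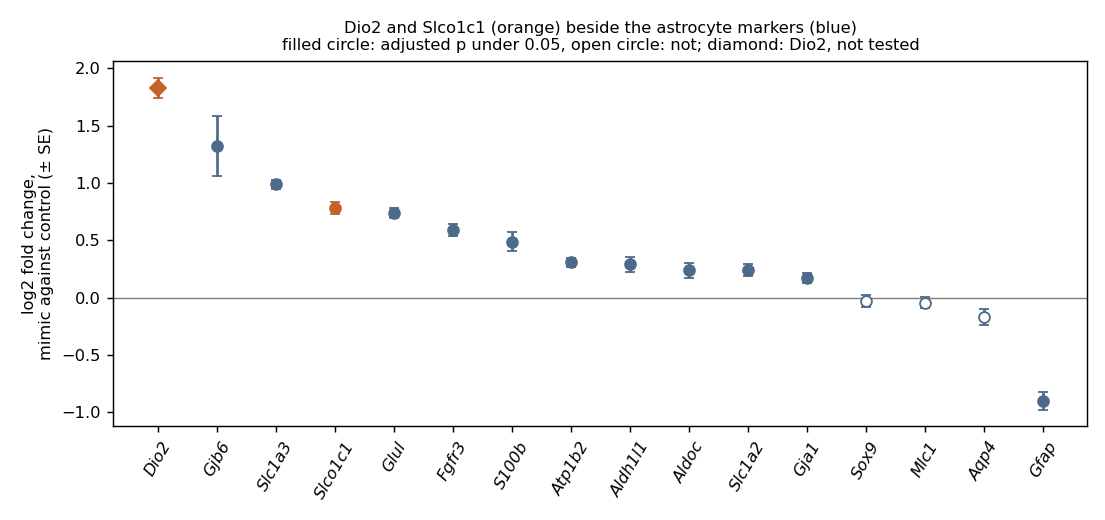
Log2 fold change of mimic against control with its SE (vertical axis) for Dio2 and Slco1c1 (orange) and 14 astrocyte markers (blue), in falling order; filled circles passed an adjusted p under 0.05, open circles did not, and Dio2 (diamond) was not tested. Dio2, selected on its increase, lies at 1.83, and the markers run from -0.90 for Gfap to 1.32 for Gjb6.

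Markers of other cell types are given beside the shares over all tested genes, of which 22.2% passed, 11.5% higher and 10.7% lower. Of 8 oligodendrocyte lineage markers 5 passed higher and 1 lower, and their summed level ran from 405 to 707 CPM in control, where replicate 1 was the highest, and from 790 to 982 CPM in mimic, led by the transcription factor Olig1 with a log2 fold change of 0.96 (± 0.16 SE, adjusted p = 0.000765 by edgeR). The marker that passed lower was the myelin gene Mog, which lost its call without control replicate 6 or mimic replicate 1 or 2 (-0.34 to -0.29, adjusted p from 0.0517 to 0.0675 by edgeR). Of 11 neuron markers edgeR called 0 higher and 2 lower, with 4 at an unadjusted p under 0.05 in either direction and 2 called by DESeq2. The 2 were Tubb3 at -0.32 and Stmn2 at -0.20 (adjusted p = 4.65e-06 and 0.00011 by edgeR). The glutamate transporter Slc17a7 passed at 0.17 once control replicate 1 was left out (adjusted p = 0.000678 by edgeR). It also passed at 0.13 with the replicate block and with no filter (adjusted p = 0.0497 and 0.045 by edgeR). The summed level of the neuron markers was 8325 to 8965 CPM in control and 8284 to 8602 CPM in mimic. Of 7 tested endothelial markers 0 passed higher and 2 lower by edgeR, 2 at an unadjusted p under 0.05 and 2 by DESeq2. These were the growth factor receptors Kdr at -0.64 and Flt1 at -0.77 (adjusted p = 0.00802 and 0.0433 by edgeR). Flt1 lost its call when any 1 of control replicates 2 to 5 or mimic replicates 1, 4, 5 or 6 was left out (-0.81 to -0.63, adjusted p from 0.0527 to 0.114). It also lost its call with the replicate block (-0.75, adjusted p = 0.0629 by edgeR) and on the deposited normalized table (-0.66, adjusted p = 0.0815 by limma). The endothelial sum was 47.2 to 69.5 CPM in control and 29.3 to 51.8 CPM in mimic. Of 8 microglia markers 0 passed higher and 1 lower by edgeR, with 2 at an unadjusted p under 0.05 and 1 by DESeq2, namely the complement gene C1qa at -0.79 (adjusted p = 0.000488 by edgeR), and the sum was 22.1 to 25.8 CPM in control and 20.9 to 32.5 CPM in mimic. Aif1 passed at -0.31 without mimic replicate 4 (adjusted p = 0.0296 by edgeR). Of 6 mesenchymal markers edgeR called 0, with 0 at an unadjusted p under 0.05 and 0 by DESeq2, and the sum was 124 to 200 CPM in control and 77.1 to 207 CPM in mimic. Without mimic replicate 4 the collagen genes Col1a1 and Col1a2 passed at -0.74 and -0.69 in place of -0.49 and -0.45 (adjusted p = 0.00296 and 0.0138 by edgeR), and without control replicate 4 the receptor Pdgfrb passed at -0.26 (adjusted p = 0.0475 by edgeR). The part of the changes in these cell type markers in the levels of Dio2, Slco1c1 and the hormone-responsive genes was not tested.

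The other genes of the pathway were read from lists, not picked for how they moved but drawn up with earlier results known. Of 8 genes of thyroid hormone transport, all tested, 2 passed higher and 1 lower, where 11.5% of all tested genes passed higher and 10.7% lower, with a median log2 fold change of -0.035 against -0.012 over all tested genes. The heterodimer of Slc7a5 and Slc3a2, an amino acid exchanger that also carries thyroid hormones, rose in both parts. Slc7a5 went from 228 ± 29.1 to 352 ± 16.3 CPM (SD, n = 6 each) with a log2 fold change of 0.63 (± 0.065 SE, adjusted p = 2.25e-06 by edgeR), and Slc3a2 from 219 ± 14.8 to 263 ± 7.77 CPM (SD, n = 6 each), by 0.26 (± 0.042 SE, adjusted p = 0.000157 by edgeR). Slc7a8, another partner of Slc3a2 and the gene with the match shown above, went from 119 ± 6.99 to 103 ± 3.89 CPM (SD, n = 6 each), a change of -0.21 (± 0.042 SE, adjusted p = 0.00124 by edgeR). Transthyretin (Ttr), Crym, Slco1a4, Slco2b1 and Slc16a10 did not pass, with log2 fold changes from -0.43 to 0.52. Slco1a4 passed at -0.53 without control replicate 1 (adjusted p = 0.00277) and at -0.41 with the replicate block (adjusted p = 0.0324). Crym passed at -0.16 without control replicate 4 or 5 (adjusted p = 0.0325 and 0.0394). It also passed with upper-quartile scaling (-0.16, adjusted p = 0.0364) and with a filter at a mean of 50 counts (-0.14, adjusted p = 0.0447). Ttr passed at -0.57 without mimic replicate 5 (adjusted p = 0.0212, all by edgeR).

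Deiodinases are selenoproteins, and the type 2 enzyme is turned over through ubiquitin. Of 10 genes for selenocysteine insertion and for the turnover of the enzyme, all tested, 0 passed, where 22.2% of all tested genes passed. Of the 10, 3 had an unadjusted p under 0.05 by edgeR and 0 were called by DESeq2. Their log2 fold changes ran from -0.16 for Usp20, a deubiquitinase of the type 2 enzyme, to 0.069 for the ubiquitin ligase March6. Usp20 passed without control replicate 4, 5 or 6 at -0.19, -0.19 and -0.18 (adjusted p = 0.0321, 0.0316 and 0.0465), and without control replicate 1 the ubiquitin ligase adaptor Wsb1 and the deubiquitinase Usp33 passed at -0.13 and -0.09 (adjusted p = 0.0429 and 0.0273). Dio1, the deiodinase of liver and kidney and the list's remaining gene, was near 0 in every library and was not tested.

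Of 13 receptor partners and coregulators, all tested, 0 passed by edgeR, where 22.2% of all tested genes passed. Of the 13, 3 had an unadjusted p under 0.05 by edgeR. DESeq2 called 2, the coactivators Ncoa1 and Ncoa2 at -0.083 and -0.081 (DESeq2 adjusted p = 0.0257 and 0.017). The edgeR log2 fold changes of the list ran from -0.10 for the retinoid X receptor Rxrb to 0.12 for Tbl1xr1, a part of the corepressor complex, with a median of 0.036. Without control replicate 1, Ncoa1 and Ncoa2 passed by edgeR too (-0.088 and -0.095; adjusted p = 0.0351 and 0.0142).

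Beyond Hr and Klf9, a list of 13 genes known to respond to thyroid hormone in brain or liver was examined, of which 12 were tested. Of these 4 passed higher and 1 lower, beside 11.5% higher and 10.7% lower of all tested genes, and the median log2 fold change was 0.096 against -0.012 over all tested genes. Thrsp, a lipogenic gene named for its response to the hormone in liver, rose most, from 139 ± 9.87 to 258 ± 18.4 CPM (SD, n = 6 each), by 0.89 on the log2 scale (± 0.053 SE, adjusted p = 3.1e-09 by edgeR), with no overlap of the groups. The nuclear receptor Rora rose by 0.40 (± 0.073 SE, adjusted p = 0.000601 by edgeR), the calcium-binding protein Calb1 by 0.24 (± 0.063 SE, adjusted p = 0.00918 by edgeR) and malic enzyme Me1 by 0.12 (± 0.037 SE, adjusted p = 0.0264 by edgeR). Me1 lost its call without control replicate 2 or 6 or mimic replicate 1 or 6, at 0.11 each time (adjusted p from 0.0582 to 0.0658). It also lost its call with the replicate block (0.12, adjusted p = 0.0655 by edgeR) and with no filter (0.12, adjusted p = 0.058 by edgeR). Dbp, a clock output gene, fell by 0.38 (± 0.076 SE, adjusted p = 0.00122 by edgeR), and its exons overlap those of Sphk2 on the opposite strand over 539 bases.

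The other genes of that list did not pass. Nrgn and Reln had log2 fold changes of -0.0086 (± 0.07 SE) and -0.0043 (± 0.043 SE), with edgeR adjusted p = 0.954 and 0.963. Camk4 had 0.072 (± 0.063 SE), Rasd2 -0.014 (± 0.071 SE) and Itpr1 -0.072 (± 0.041 SE), with edgeR adjusted p = 0.468, 0.921 and 0.241. The myelin gene Mbp, which oligodendrocytes switch on under hormone, had 0.27 (edgeR adjusted p = 0.0775) and passed at 0.32 without control replicate 4 or mimic replicate 1 (adjusted p = 0.0462 and 0.0427). Pcp2 at a mean of 8.5 counts did not pass, and Cbr2 was too low to test.

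Since the Dio2 promoter holds a cAMP response element, 10 genes known to respond to cAMP were examined beside it. All were tested, and 4 passed higher and 1 lower, where 11.5% of all tested genes passed higher and 10.7% lower. The median log2 fold change was 0.081 against -0.012 over all tested genes. The orphan nuclear receptors Nr4a1 and Nr4a2 rose by 0.38 (± 0.1 SE, adjusted p = 0.013 by edgeR) and 0.34 (± 0.091 SE, adjusted p = 0.0113 by edgeR), the clock gene Per1 by 0.21 (± 0.057 SE, adjusted p = 0.014 by edgeR) and the coactivator Ppargc1a by 0.30 (± 0.042 SE, adjusted p = 3.98e-05 by edgeR). The immediate early gene Fos fell by 0.28 (± 0.056 SE, adjusted p = 0.00134 by edgeR). Nr4a3, the most abundant of the list by counts, had -0.012 (± 0.047 SE, adjusted p = 0.896 by edgeR), and the kinase gene Sik1, with 2 matches to the mimic, had -0.16 (± 0.057 SE, adjusted p = 0.0574 by edgeR), passing without control replicate 4 or 5 (-0.18 and -0.17, adjusted p = 0.0325 and 0.0484). The phosphodiesterase gene Pde4b passed at -0.12 without control replicate 1 (adjusted p = 0.0127). The 5 calls thus ran in both directions.

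**Figure D4:**
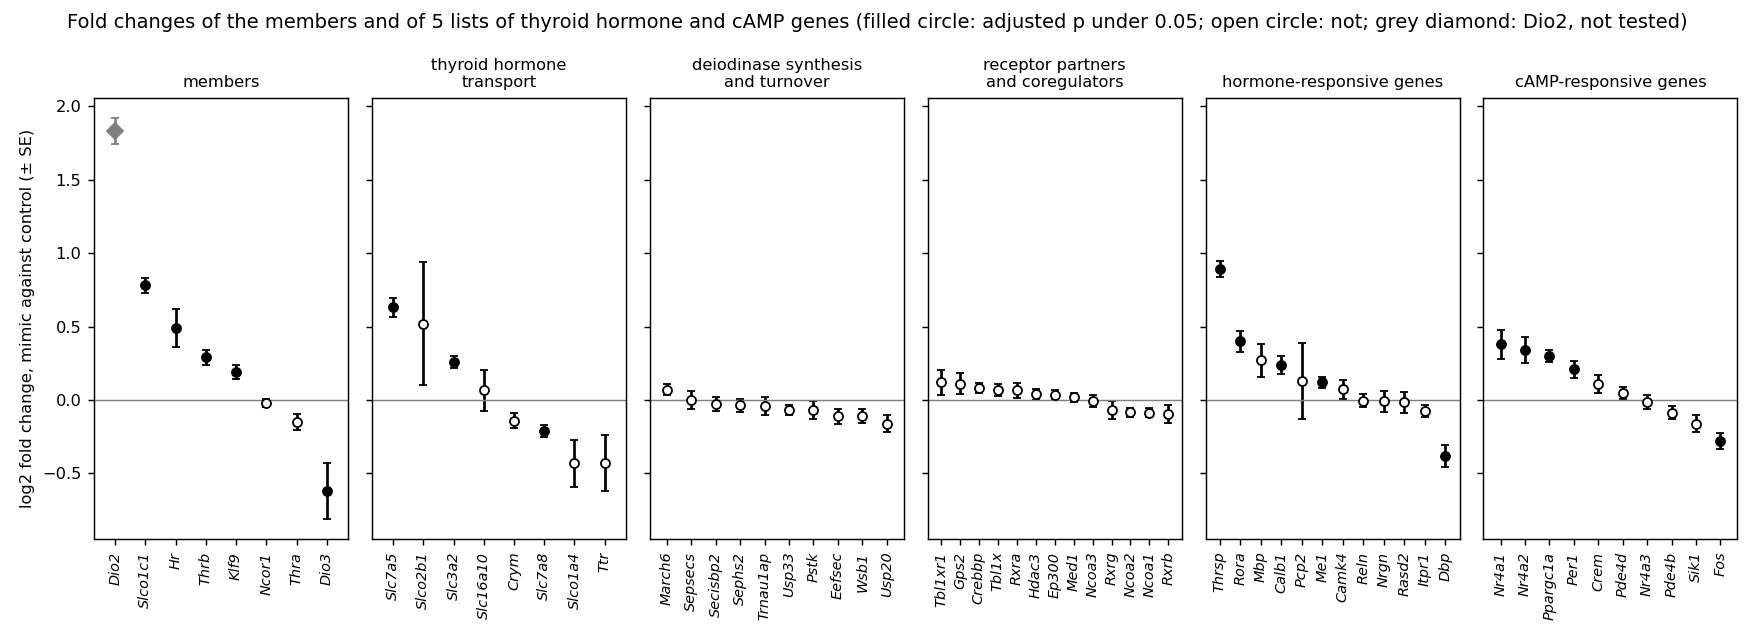
Log2 fold change of mimic against control with its SE (vertical axis) for the 8 members and the tested genes of 5 lists, each panel in falling order; filled circles passed an adjusted p under 0.05, open circles did not, and Dio2 (grey diamond) was not tested. Genes of deiodinase synthesis and of receptor coregulation lie between -0.16 and 0.12 with no call, where 22.2% of all tested genes were called. Thrsp at 0.89 tops the hormone-responsive genes.

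Matches to the seed of the mimic can be set against these changes. Dio2 was left out of these counts because it was selected on its change. Of the other 60 tested members and list genes of the pathway with an annotated 3′ UTR, 20 held a match, of which 4 passed higher and 1 lower, and 40 held none, of which 10 passed higher and 3 lower. Over all tested genes with a 3′ UTR, 385 (11.6%) of 3306 with a match passed higher and 636 (19.2%) lower, and 1666 (14.1%) of 11776 without one passed higher and 1267 (10.8%) lower. The median log2 fold change in the pathway was 0.00028 with and 0.019 without a match, against -0.036 and 0.0013 over all tested genes. Of the 4 members with a match, Klf9 and Thrb rose, and Thra and Ncor1 did not pass.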

How the data were processed

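RNA of 12 cultures (6 control, 6 mimic, grouped by the labels) was sequenced as 50 bp single-end reads from poly(A) libraries. Per the submitters' processing notes and the methods of the study, the authors checked reads with FastQC 0.11.5, aligned them to mm10 with STAR 2.5.2b and counted reads per gene with featureCounts (Subread 1.5.1); the strand setting and the annotation are not given in the sources used here. The deposited counts are raw whole numbers for 48709 genes. The authors also deposited a normalized signal table of 18289 genes, equal to the counts divided by 1 factor per sample (0.673 to 1.26), used for 1 alternative only.

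Genes reaching 5 counts in 6 or more samples, the filter of the study, were tested with edgeR 4.0.16 (R 4.3.3; glmQLFit with robust estimation, glmQLFTest, TMM, no covariate, Benjamini-Hochberg adjustment, threshold 0.05); the study used DESeq2, which was run as an alternative (1.42.0). SEs of log2 fold changes were derived from the F statistic (absolute change over root F). Correlations used log2 CPM with a prior count of 1 and exact permutation over all pairings (ranks from scipy 1.17.1). Names, coordinates, exonic lengths and 3′ UTRs came from GENCODE M21 on GRCm38, the build of mm10, and named 48349 genes; promoters and microRNAs came from RefSeq on GRCm38.p6. A seed match was bases 2 to 8, or 2 to 7 followed by an A. The fit was tested on simulated data with 200 changed genes.

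Members and lists were chosen with earlier results of these data known; 3 genes of the pathway lists are not reported here, for reasons unrelated to their values, so the counts cover the remaining genes of each list. Named genes were the members, any gene of the 5 pathway lists, up to 3 called genes of a marker list by size of change with any gene at 0, and the 5 genes most like Dio2; Slc17a7, Aqp4, Mog, Aif1, Col1a1, Col1a2 and Pdgfrb were named after their values were seen, and Nr1d1, Sphk2 and Gm26512 as overlapping genes. Alternatives were other scalings, filters and tests, a replicate block, and each library left out. Replicate pairs were compared by chi-square per degree of freedom, and none was treated as 1 library. Control pairs ran from 1.78 to 42.7 and mimic pairs from 2.14 to 10. Control replicate 1 against replicates 4, 5 and 6 stood at 42.7, 41.4 and 36.3, and control replicate 4 against 5 at 1.78. The source of this spread among the controls was not tested.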

Additional observations from a re-analysis of the deposited data

Results flagged for a closer look

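Dixon's test for groups of 6 was used to find a library whose value lay far from the rest of its own group. Of 42 groups of values examined, 4 passed its critical value, against 2.1 by chance at 1 in 20. Mimic replicate 5 had the highest Dio3 level of the mimic libraries, at 0.708 CPM with the next at 0.536 CPM. Control replicate 2 had the lowest summed astrocyte marker level of the controls, at 6173 CPM with the next at 6488 CPM, and the lowest log2 ratio of Dio2 to Slco1c1 in CPM per kb, at -1.75 with the next at -1.58. Control replicate 1 had the highest summed oligodendrocyte lineage marker level of the controls, at 707 CPM, with the others between 405 and 437 CPM. Without control replicates 1 and 2 the log2 fold changes were 1.80 for Dio2, 0.77 for Slco1c1, 0.62 for Hr, 0.15 for Klf9, 0.22 for Thrb, -0.72 for Dio3 and -0.02 for Ncor1. Thra was at -0.066 in place of -0.15 and passed there (adjusted p = 0.0441 by edgeR).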

How the results depend on the processing

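Of 153 values of the fold changes of the 7 members other than Dio2 under alternatives, 141 kept their direction and their side of the threshold. A call was lost by 5 and gained by 7, and 0 changed sign. All 7 gained calls were those of Thra. Over these members and the pathway lists the numbers were 1208 of 1317, with 22 calls lost, 45 gained and 42 changes of sign in values that were not called; 0 called values changed sign. Slco1c1 kept its call under all 22 alternatives. The log2 fold change of Dio2 ran from 1.76 to 1.87, that of Hr from 0.41 to 0.57 and that of Klf9 from 0.15 to 0.21 over the fits that drop 1 library each. A test against a minimum change of 1.2-fold called 1035 genes in all in place of 4182, 683 higher in place of 2163 and 352 lower in place of 2019, and of the hormone-responsive list 1 higher and 0 lower. Under it Hr (0.49, adjusted p = 0.192) and Klf9 (0.19, adjusted p = 1) did not pass, nor did Thrb (adjusted p = 0.911) and Dio3 (adjusted p = 0.164); the null of this test asks for a larger change by construction. Leaving out 1 library gave 3515 to 5154 calls, 1874 to 2698 higher and 1636 to 2456 lower, and 3 to 5 hormone-responsive genes higher and 1 lower in each fit. Leaving out control replicates 1 and 2 together, chosen after seeing the data, gave 3060 higher and 2891 lower. The number of within-group correlations that passed was 0 under every alternative, but with 5 or 4 libraries the exact test has little room, so this says nothing about stability.

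The labels number both groups 1 to 6. Deviations of same-numbered samples correlated at -0.0335 to 0.0776, 0 of 6 pairs over 0.1, and 0 of 6 controls correlated best with its own number. No pairing by number was seen in these values. The labels do not state one, and the values cannot exclude a shared preparation. A fit with the replicate block called 1950 genes higher and 1709 lower, and of the hormone-responsive list 3 higher and 1 lower. Among the 8 members, Dio3 (14 to 38 counts) and Hr (42 to 91 counts) had the fewest counts.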
